A study of Mus musculus with 15 samples.

Results

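The comparison made here was between the 4 NIH3T3 samples collected 405 min after Shield-1 (S1) was withdrawn and the 5 control samples, out of 15 samples in the series. Members were chosen by the sample titles alone. NIH3T3 is a mouse fibroblast line. All 9 samples came from cells that stably expressed DD-sfGFP, in which an FKBP-derived destabilizing domain (DD) is joined to superfolder GFP, and that were sorted by the study for high GFP, so they were an enriched population and not a single clone. The labels give the control samples no stress and time 0. According to the study's methods, S1 keeps the DD folded and was withdrawn by adding a purified mutant FKBP protein, which binds it. The 405-min samples therefore differed from the controls in the unfolded DD, in the added FKBP protein and in elapsed time, and these cannot be told apart here. Of the 10 fibroblast markers examined, 10 were above 0, and their summed level was 16350 to 19815 CPM in the controls and 12735 to 17738 CPM at 405 min. CPM is the count of a gene scaled to a common library total, with TMM factors.

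An unfolded protein in the cytosol or nucleus can be refolded by chaperones or marked with ubiquitin and degraded by the proteasome, a 20S barrel capped by 19S particles. NRF1, coded by Nfe2l1, is known to drive proteasome genes when proteasome capacity is short. NRF2, coded by Nfe2l2, drives genes of glutathione and NADPH metabolism once it escapes its inhibitor KEAP1. The p53 protein drives genes of growth arrest and survival, and fibroblasts also carry the BMP, TGF-beta and YAP pathways that govern matrix, adhesion and growth.

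Total counts ranged from 6652685 to 18746602 in the control libraries and from 10309602 to 20341538 in the 405-min libraries. The libraries did not all see GC content alike. For each library the deviation of each gene's log2 CPM from its mean over the 15 libraries was regressed on the GC content of its exons. Control replicate 2 and 405-min replicates 1, 2 and 4 had slopes of 0.535, 0.722, 0.312 and 0.491 log2 CPM per 10 points of GC and are called library set 2. Control replicates 1, 3, 4 and 5 had slopes of -0.284, -0.709, -0.430 and -0.296, and 405-min replicate 3 had -0.194; with the other libraries of low slope they form library set 1. The mean slope was 0.333 ± 0.389 (SD, n = 4) at 405 min and -0.237 ± 0.464 (SD, n = 5) in the controls. This difference of 0.569 did not pass an exact two-sided permutation test (p = 0.0873). Without control replicate 2, the only control with a slope above 0, it was 0.762 (exact permutation p = 0.0286). That library stands out by the tested value itself, so the second p does not count as a pass. The study's methods and the labels name more than 1 library procedure, but which library received which was not stated, so the origin of the sets was not tested. Because 3 of 4 libraries at 405 min and 1 of 5 controls were in set 2, calls below are counted in the fit with group alone (group-only fit) and in the fit with the library set as a covariate, and log2 fold changes are from the group-only fit unless the set is named.

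**Figure D1:**
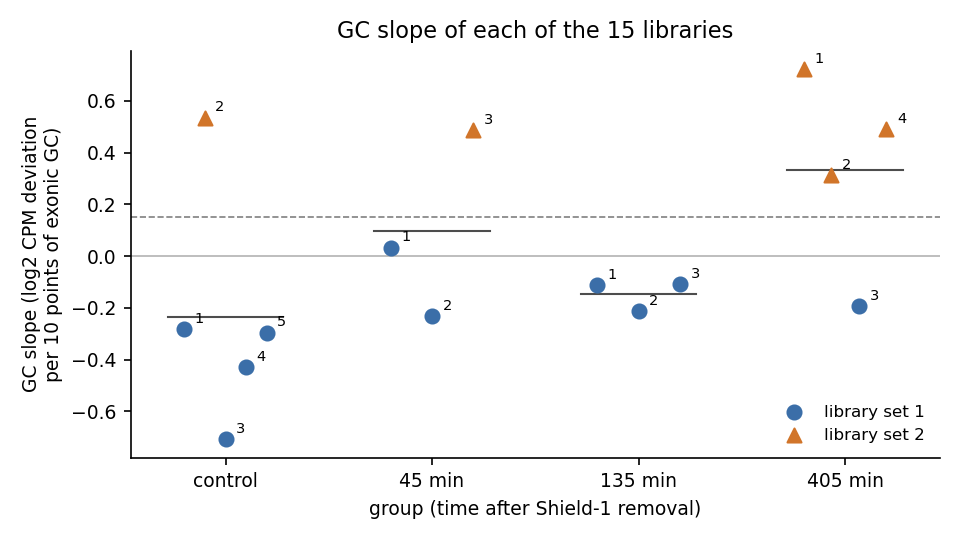
GC slope of each library (y axis, log2 CPM deviation per 10 points of exonic GC) by group (x axis); circles are library set 1, triangles library set 2, numbers are replicates, solid bars are group means and the dashed line is the 0.15 limit between the sets. The 405-min libraries 1, 2 and 4 sit above the limit with control replicate 2, while 405-min replicate 3 sits at -0.194 among the set 1 libraries.

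At 405 min, 1027 of 10276 genes tested rose (9.99%) and 1382 fell (13.4%) in the group-only fit (edgeR quasi-likelihood test, adjusted p under 0.05). With the library set as a covariate, 634 rose (6.17%) and 706 fell (6.87%). Both fits called 542 rising genes (5.27%) and 621 falling genes (6.04%), and these are the genes meant below by a change in both fits. All 1027 and all 1382 genes kept their sign when the set was added, and all 542 and 621 had the same sign within set 1 and within set 2. These genes were chosen by their calls in the same libraries, so a shared sign follows largely from the choice. Nothing in the sources used says that the samples of a group came from separate cultures, so p-values measure the spread between these samples only. In set 1, however, the 405-min group was 1 library, and in set 2 the control group was 1 library. No gene passed a test of whether the 405-min effect differed between the sets (0 genes at adjusted p under 0.05 and 69 at an unadjusted p under 0.05, edgeR), which with 1 library on 1 side in each set does not show that the effects were alike. The counts rested on single libraries: without control replicate 2, the only control of set 2, 2517 genes rose and 2461 fell, without control replicates 1 and 4 the counts were 568 and 551 rising and 905 and 833 falling, and without 405-min replicates 1, 2 and 4 they were 417, 502 and 431 rising and 552, 629 and 528 falling. In the fit with the library set, 1150 rose and 1176 fell without control replicate 3, and 203 rose and 211 fell without 405-min replicate 3. Where a list below is counted with 1 library left out, the counts over all genes had moved too.

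The genes called in the group-only fit were sorted by GC content. In the lowest of 5 equal classes of exonic GC (33.7% to 43.8%), 4.22% rose and 24.1% fell, while in the highest (54.8% to 71.7%) 13.7% rose and 4.88% fell. With the library set, the shares were 5.08% rising and 9.04% falling in the lowest class and 6.81% and 4.32% in the highest. When a GC-dependent offset was removed from each library, the shares were nearly level, at 12.1% and 14.6% in the lowest class and 11.7% and 14.0% in the highest. That removal takes out a trend with GC whatever its source, so the levelling follows from the procedure and is not a result. The median exonic GC was 49.1% over the tested genes, 51.7% and 45.3% for the rising and falling genes of the group-only fit, and 52.4% and 44.7% for those that the library set removed from the calls. Across 9836 genes, which are not independent replicates, log2 fold change and GC had a Pearson r of 0.42 in the group-only fit, 0.15 with the library set, 0.18 within set 1 and -0.03 within set 2. The 135-min samples, all of set 1, gave an r of 0.03 against the same controls.

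**Figure D2:**
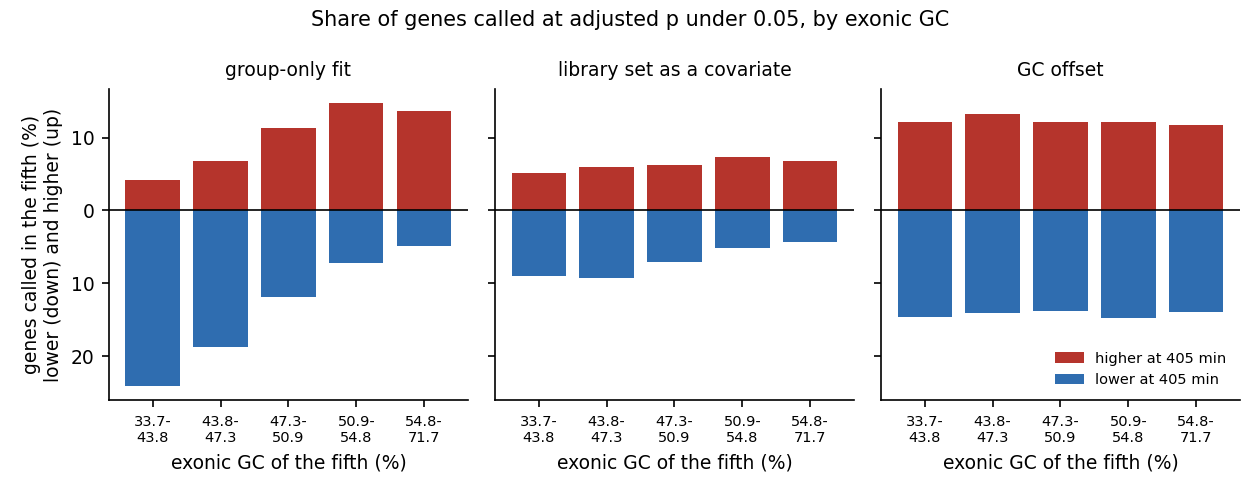
Share of genes called at 405 min (y axis, percent of the class; rising above 0, falling below 0) in 5 classes of exonic GC (x axis) under 3 fits. In the group-only fit the falling share goes from 24.1% in the lowest GC class to 4.88% in the highest. With the GC offset, which removes a trend with GC by its construction, it is 14.6% and 14.0%.

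The genes with the largest increases that passed in both fits and in which every 405-min library lay above every control were Osgin1, Mocos, Rusc1, Abhd4, Mmp9, Slc7a11, Phf1, Limk1, Sqstm1, Procr, Mettl7a1, Ndrg4, Mfsd6, Ier3 and Prl2c3. Over all tested genes, 6.75% lay above all controls in every 405-min library. Osgin1, an oxidative stress-induced growth inhibitor and known NRF2 target (chromosome 8, 121961062 to 121970156, mm9), stood at 1.89, 3.81, 1.22, 0.544 and 1.36 CPM in control replicates 1 to 5 and at 31.5, 20.3, 10.9 and 20.7 CPM in 405-min replicates 1 to 4. The control library of set 2 was the highest control and the set 1 library the lowest at 405 min, yet the groups did not overlap (log2 fold change 3.52, SE 0.44, adjusted p = 0.000172, and with the library set 2.97, adjusted p = 1.49e-05). Mocos, which sulfurates the molybdenum cofactor, stood at 1.31, 3.31, 1.57, 0.816 and 4.13 CPM in control replicates 1 to 5 and at 28.2, 23.9, 14.8 and 28.6 CPM in 405-min replicates 1 to 4. Its 4 late libraries were all above 14 CPM and its controls all below 5 CPM (log2 fold change 3.38, SE 0.45, adjusted p = 0.00029, and with the library set 2.94, adjusted p = 0.000237).

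Slc7a11, the cystine importer that feeds glutathione synthesis (chromosome 3, 50168858 to 50247535), stood at 8.16, 10.5, 0.349, 8.22 and 9.40 CPM in control replicates 1 to 5 and at 72.0, 79.7, 50.04 and 54.3 CPM in 405-min replicates 1 to 4. Control replicate 3 was far below the other controls, and the smallest 405-min value was still above 4 times the largest control (log2 fold change 3.09, SE 0.48, adjusted p = 0.000847, and with the library set 2.77, adjusted p = 0.000452). Sqstm1 codes p62, an autophagy receptor for ubiquitylated cargo that also binds KEAP1 (chromosome 11, 50013654 to 50024292). It stood at 134, 365, 108, 123 and 203 CPM in control replicates 1 to 5 and at 1829, 1298, 615 and 1269 CPM in 405-min replicates 1 to 4, with the highest control in set 2 and the lowest late value in set 1 (log2 fold change 2.75, SE 0.40, adjusted p = 0.000467, and with the library set 2.08, adjusted p = 7.65e-06). Its deposited RPKM averaged 45.5 and 303.

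Abhd4, a lipid hydrolase (chromosome 14, 54878972 to 54888840), went from 7.71 ± 4.76 CPM in the controls (SD, n = 5) to 73.3 ± 29.1 CPM at 405 min (SD, n = 4), with log2 fold changes of 2.67 within set 1 and 2.52 within set 2. Procr, the endothelial protein C receptor (chromosome 2, 155576953 to 155581213), stood at 7.35, 8.37, 5.40, 6.05 and 5.38 CPM in control replicates 1 to 5 and at 55.8, 46.2, 23.4 and 41.5 CPM in 405-min replicates 1 to 4. All late values were above all controls by a wide margin (log2 fold change 2.67, SE 0.29, adjusted p = 7.59e-05, and with the library set 2.20, adjusted p = 1.49e-05). Ndrg4 (chromosome 8, 98226963 to 98238856) was even at 405 min, at 41.2, 34.3, 37.7 and 36.6 CPM against 3.93, 3.41, 7.84, 7.21 and 9.18 CPM in the controls (log2 fold change 2.57, SE 0.30, adjusted p = 0.000111, and with the library set 2.64, adjusted p = 8.49e-05). Mmp9, a secreted gelatinase (chromosome 2, 164773751 to 164781346), stood at 0.728, 0.852, 2.79, 0.204 and 0.217 CPM in control replicates 1 to 5 and at 9.26, 9.88, 5.31 and 5.66 CPM in 405-min replicates 1 to 4. The groups were apart, and the levels were low throughout. Mmp9, Limk1, a kinase of the actin regulator cofilin, and Ier3, an immediate-early survival gene, had log2 fold changes of 3.18, 3.03 and 2.54 in the group-only fit and 3.06, 2.51 and 2.32 with the library set. Rusc1, Phf1 (a Polycomb-associated protein), Mettl7a1 and Mfsd6 had log2 fold changes of 3.36, 3.05, 2.61 and 2.55 in the group-only fit and 2.64, 2.30, 2.38 and 2.38 with the library set. Prl2c3 (2.52 in the group-only fit and 1.89 with the library set) belongs to a family of near-identical prolactin-related genes, so its reads could be split between copies.

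**Figure D3:**
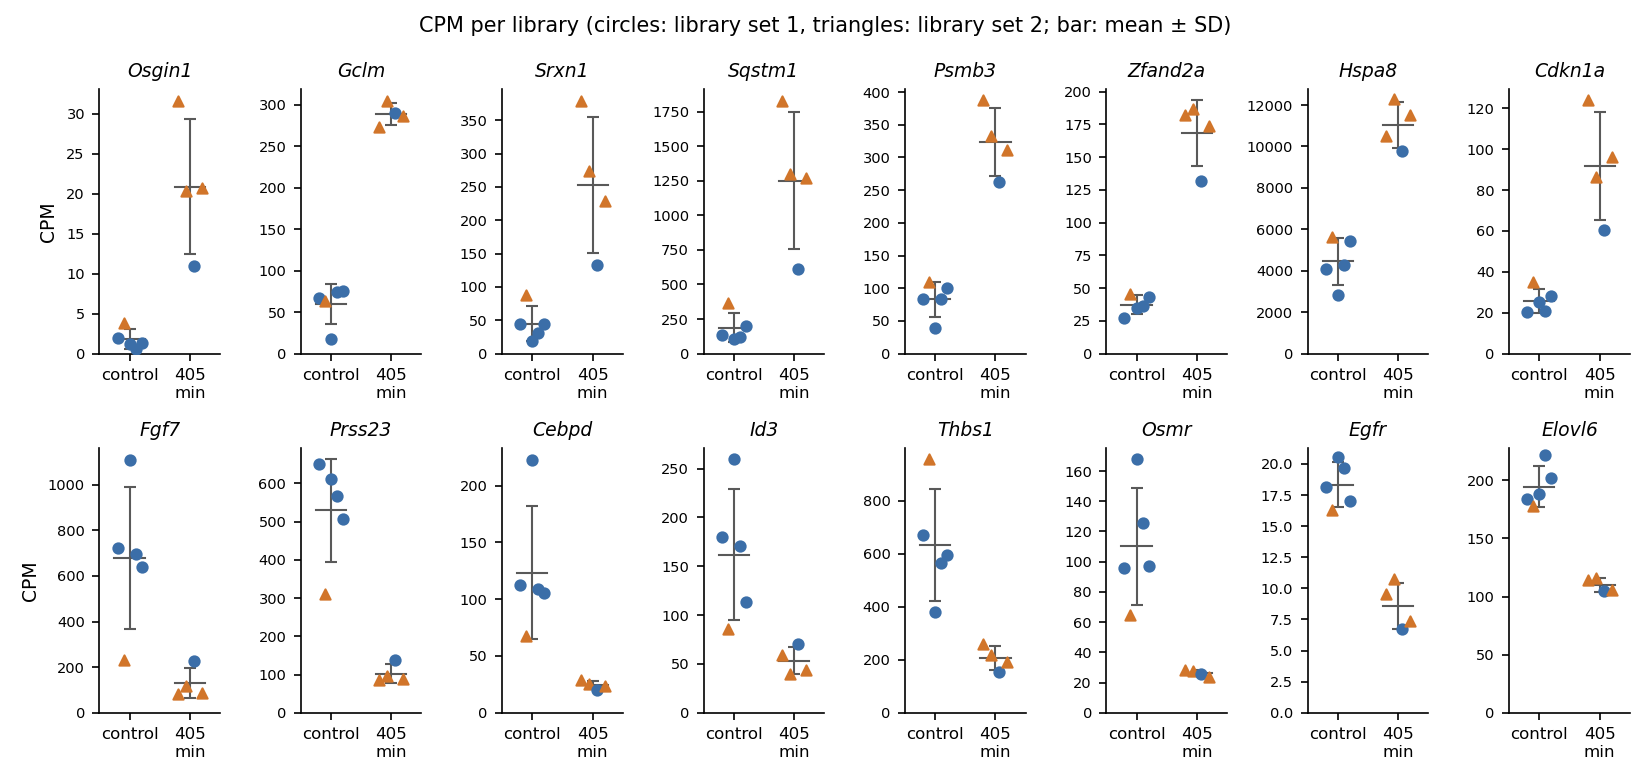
CPM (y axis, from 0) of 8 rising genes (upper row) and 8 falling genes (lower row) in 5 control and 4 405-min libraries; circles are library set 1, triangles library set 2, bars are mean ± SD. In each of the 16 genes the 405-min libraries lie on one side of all controls, with Fgf7 the closest pair at 226 and 231 CPM.

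Most NRF2 target genes tested rose. Of 37 tested, 26 rose and 1 fell in the group-only fit, and 21 rose and 1 fell in both fits, beside 5.27% rising and 6.04% falling over all genes. Their median log2 fold change was 1.31 in the group-only fit and 1.13 with the library set, against -0.0014 and -0.0104 over all tested genes. When each library was left out in turn, 19 to 30 rose in the group-only fit. Gclm, the regulatory subunit of the enzyme that starts glutathione synthesis, stood at 67.1, 63.4, 17.6, 74.4 and 75.8 CPM in control replicates 1 to 5 and at 273, 305, 291 and 287 CPM in 405-min replicates 1 to 4. The 4 late values were close to each other, that of the set 1 library included, and all were above 3 times the highest control (log2 fold change 2.27, SE 0.29, adjusted p = 0.000184, and with the library set 2.27, adjusted p = 0.000117).

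Gsr, glutathione reductase, stood at 63.4, 98.8, 49.5, 63.3 and 63.5 CPM in control replicates 1 to 5 and at 295, 284, 209 and 267 CPM in 405-min replicates 1 to 4 (log2 fold change 1.96, SE 0.18, adjusted p = 1.6e-05, and with the library set 1.75, adjusted p = 2.03e-06). Srxn1, which restores oxidized peroxiredoxins, stood at 44.2, 87.3, 18.7, 30.1 and 44.2 CPM in control replicates 1 to 5 and at 379, 273, 133 and 229 CPM in 405-min replicates 1 to 4, and here the set 1 library at 405 min was the lowest of the late group but above all controls (log2 fold change 2.49, SE 0.37, adjusted p = 0.000555, and with the library set 1.95, adjusted p = 8.87e-05). Gsta4, a glutathione transferase for lipid aldehydes, and Cat, catalase, rose by 1.86 and 1.76 with SE 0.17 and 0.16, and by 1.84 and 1.55 with the library set. Hmox1, heme oxygenase 1, went from 56.9 ± 22.3 CPM in the controls (SD, n = 5) to 197 ± 74.9 CPM at 405 min (SD, n = 4), a log2 fold change of 1.79 in the group-only fit and 1.32 with the library set. Its 135-min mean was 485 CPM ± 46.0 (SD, n = 3), and the difference of 405 from 135 min was -1.30 (adjusted p = 0.0295). Nqo1, a quinone reductase, rose by 1.49 in the group-only fit and 1.14 with the library set. The falling member was Ugdh, which makes UDP-glucuronate (-1.29 in the group-only fit and -0.77 with the library set).

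Of 9 regulators in the list of NRF1 and NRF2 factors, 2 rose and 0 fell in both fits, beside 5.27% rising and 6.04% falling over all genes. In the group-only fit 8 of the 9 had log2 fold changes above 0. The 2 that rose were Keap1 (log2 fold change 1.68, SE 0.32, adjusted p = 0.00327, and with the library set 1.16, adjusted p = 0.000209) and Mafg, a small MAF partner. Nfe2l2 stood at 81.7, 102, 121, 83.1 and 97.01 CPM in control replicates 1 to 5 and at 128, 131, 112 and 126 CPM in 405-min replicates 1 to 4. All late values but that of replicate 3 were above all controls, and the gene did not pass (log2 fold change 0.36, SE 0.15, adjusted p = 0.0886, and with the library set 0.24, adjusted p = 0.331). Nfe2l1 had a log2 fold change of 0.65 (adjusted p = 0.104) in the group-only fit and 0.22 (adjusted p = 0.519) with the library set. Genes of the pentose phosphate pathway and NADPH supply rose in part: 4 of 9 in that list rose in both fits, namely G6pdx, Pgd, Taldo1 and Me1, all of which are also in the NRF2 list. Taldo1, transaldolase, went from 46.4 ± 20.2 CPM in the controls (SD, n = 5) to 215 ± 76.8 CPM at 405 min (SD, n = 4) (log2 fold change 2.21, SE 0.32, adjusted p = 0.000434, and with the library set 1.64, adjusted p = 6.22e-06), and Me1, malic enzyme, stood at 61.6, 59.4, 60.1, 69.5 and 67.9 CPM in control replicates 1 to 5 and at 118, 112, 136 and 124 CPM in 405-min replicates 1 to 4 (log2 fold change 0.94, SE 0.11, adjusted p = 9.73e-05, and with the library set 1.005, adjusted p = 1.49e-05). Me1 was even within both groups and had log2 fold changes of 1.06 within set 1 and 1.004 within set 2.

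Promoter sequence was examined because these genes moved together. The core of the antioxidant response element, TGACNNNGC on either strand, was sought in RefSeq promoter windows (GRCm38.p6, 250 bases before to 50 after the start), which differ in build from the deposited coordinates and were used for sequence only. It occurred in 14.0% of the 27025 genes with a window and in 17.3% of the 7161 tested genes with a window, and in 21.1% of 383 rising and 17.1% of 439 falling genes called in both fits. Among the NRF2 targets that rose in both fits it was in 6 of the 15 with a window (40.0%: G6pdx, Gclm, Me1, Pgd, Prdx1 and Srxn1). Among all tested NRF2 targets, which include those 15, it was in 11 of the 31 with a window (35.5%). The targets that did not rise were not compared on their own. Among proteasome subunits that rose in both fits it was in 3 of 14 (21.4%: Adrm1, Psmb5 and Psmb6), and among all tested subunits in 5 of 26 (19.2%). The core shares its first 4 letters with the AP-1 motif TGACTCA. A match is a description and not a binding site. The 150 bases before the start are shown for 3 antioxidant genes and 2 proteasome genes with a match in that stretch, each 5′ to 3′ on the gene's strand, with the matching letters in capitals.
Gclm (chr3:122245407-122245556, + strand): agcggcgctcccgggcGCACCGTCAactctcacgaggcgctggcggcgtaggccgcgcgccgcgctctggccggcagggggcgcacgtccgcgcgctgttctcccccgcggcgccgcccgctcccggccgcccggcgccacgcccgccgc
Prdx1 (chr4:116685449-116685598, + strand): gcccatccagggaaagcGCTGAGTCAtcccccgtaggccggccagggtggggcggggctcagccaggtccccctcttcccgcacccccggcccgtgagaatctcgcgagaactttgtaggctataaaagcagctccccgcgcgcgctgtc
G6pdx (chrX:74428881-74429030, - strand): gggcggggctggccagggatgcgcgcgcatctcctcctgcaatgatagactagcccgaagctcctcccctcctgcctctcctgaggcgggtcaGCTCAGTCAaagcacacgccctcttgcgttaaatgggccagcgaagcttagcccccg
Psmb5 (chr14:54617996-54618145, - strand): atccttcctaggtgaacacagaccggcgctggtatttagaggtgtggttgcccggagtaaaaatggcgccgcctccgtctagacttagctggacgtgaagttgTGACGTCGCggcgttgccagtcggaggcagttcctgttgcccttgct
Psmb6 (chr11:70525207-70525356, + strand): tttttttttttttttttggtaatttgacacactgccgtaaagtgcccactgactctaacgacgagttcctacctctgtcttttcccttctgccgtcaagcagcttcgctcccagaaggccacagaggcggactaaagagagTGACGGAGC
Prdx1, a peroxiredoxin, and G6pdx, which opens the pentose phosphate pathway, held the core as its reverse complement, as did Gclm, while both proteasome genes held TGACNNNGC as written.

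Proteasome subunits rose, and how many passed depended on the library set. Over all tested genes, 9.99% rose in the group-only fit, 6.17% with the library set and 5.27% in both. Of 33 subunits tested, 17 rose and 0 fell in the group-only fit, and 27 rose with the library set (the same 17 and 10 more). Their median log2 fold change was 0.56 and 0.87 in these fits. By subcomplex, 6 of 14 members of the 20S core, 4 of 6 of the 19S ATPases and 7 of 13 other 19S subunits rose in both fits. When each of the 9 libraries was left out of the group-only fit in turn, 6 to 7, 4 and 5 to 7 of them rose. Psmb3, a 20S beta subunit, stood at 83.7, 109, 39.0, 83.7 and 100.2 CPM in control replicates 1 to 5 and at 387, 334, 263 and 311 CPM in 405-min replicates 1 to 4 (log2 fold change 1.96, SE 0.23, adjusted p = 0.000126, and with the library set 1.75, adjusted p = 8.25e-05). Psmd3, a 19S scaffold subunit, stood at 91.3, 207, 34.9, 67.1 and 81.5 CPM in control replicates 1 to 5 and at 551, 392, 218 and 431 CPM in 405-min replicates 1 to 4 (log2 fold change 2.04, SE 0.40, adjusted p = 0.00343, and with the library set 1.48, adjusted p = 0.000624). Psmd4, the ubiquitin receptor Rpn10, and Psmc5, an ATPase, rose by 1.51 and 1.62 in the group-only fit and by 1.33 and 1.34 with the library set.

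The subunits split by GC content. Of the 17 with exonic GC above the median of all tested genes, 15 rose in the group-only fit and 16 with the library set. Of the 16 at or below it, 2 rose in the group-only fit and 11 with the library set. The 10 subunits called with the library set only had exonic GC of 36.2% to 49.8%. Psma3, a 20S alpha subunit of 41.2% GC, stood at 502, 347, 494, 517 and 438 CPM in control replicates 1 to 5 and at 413, 568, 782 and 521 CPM in 405-min replicates 1 to 4. The groups overlapped, but within set 2 the control stood at 347 CPM against 413 to 568 CPM, and in set 1 the single late library at 782 CPM was above the controls at 438 to 517 CPM (log2 fold change 0.31, SE 0.18, adjusted p = 0.202, and with the library set 0.60, adjusted p = 0.00253). Psmc6, of 36.2% GC, had log2 fold changes of 0.47 in the group-only fit and 0.94 with the library set, and Psmd1, of 46.8% GC, 0.53 in the group-only fit and 0.87 with the library set. The 6 subunits that passed in neither fit were Psma2, Psma4, Psma5, Psmc1, Psmd14 and Shfm1. Of these, Psma2, Psma4, Psma5 and Psmd14 had log2 fold changes below 0 in the group-only fit (-0.30, -0.39, -0.20 and -0.24) and above 0 with the library set (0.23, 0.30, 0.64 and 0.20). With the GC offset in place of the set, 20 of 33 rose, but Adrm1, the ubiquitin receptor Rpn13, went from 0.56 in the group-only fit to -0.01. Across the 33 subunits log2 fold change and GC had an r of 0.64 in the group-only fit and 0.45 with the library set, as a description.

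**Figure D4:**
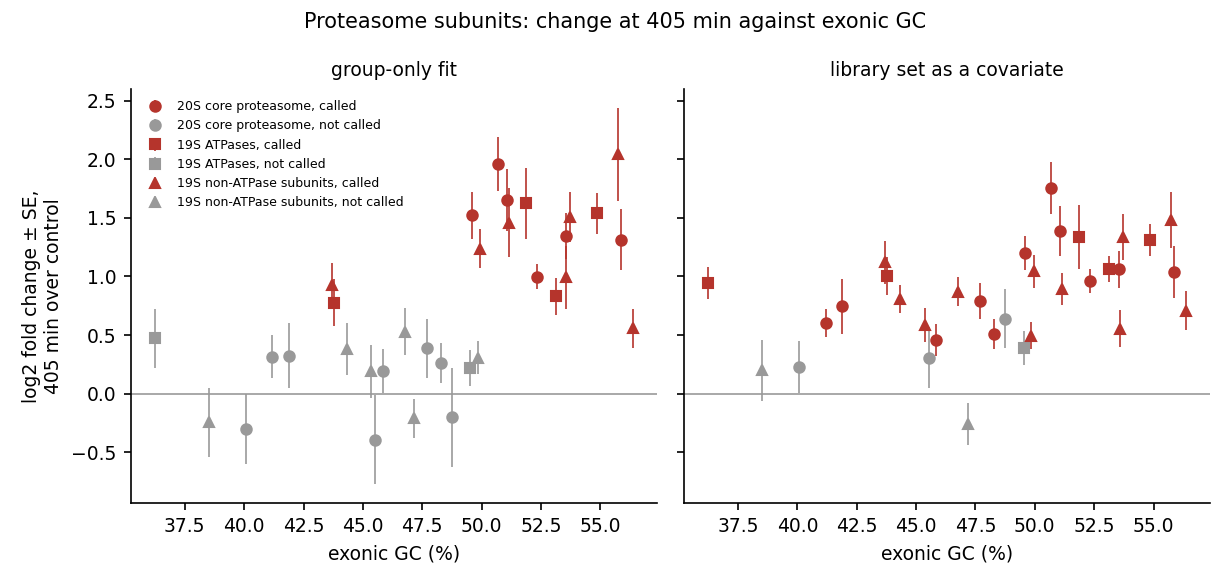
Log2 fold change at 405 min over control (y axis, ± SE) of 33 proteasome subunits against exonic GC (x axis, percent) in the group-only fit (left) and with the library set as a covariate (right); red symbols passed adjusted p under 0.05, and shapes mark the subcomplex. On the left 2 of the 16 subunits at or below the median GC passed, and on the right 11 of them.

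Around the proteasome, 4 of 16 assembly factors and activators rose in both fits: Psme4 (PA200, 1.01 in the group-only fit and 1.13 with the library set), Usp14, a deubiquitinase on the 19S particle (0.76 in the group-only fit and 0.80 with the library set), Psmd9 and Pomp. The list as a whole did not move, with a median log2 fold change of 0.01 in the group-only fit and 0.11 with the library set. In the group-only fit 8 of the 16 were above 0 and 2 fell, Psmg4 (-0.88) among them, and with the library set 0 fell. Usp14 stood at 96.2, 95.0, 111, 105 and 85.5 CPM in control replicates 1 to 5 and at 161, 172, 164 and 171 CPM in 405-min replicates 1 to 4, with little spread in either group. In the list of ubiquitin genes and the p97 pathway, 10 of 26 rose in both fits and 0 fell. The all-gene shares were 5.27% rising and 6.04% falling. Zfand2a, an AN1 zinc finger protein that associates with the proteasome, stood at 26.9, 45.6, 34.5, 36.0 and 43.0 CPM in control replicates 1 to 5 and at 182, 186, 132 and 174 CPM in 405-min replicates 1 to 4 (log2 fold change 2.18, SE 0.18, adjusted p = 7.09e-06, and with the library set 1.97, adjusted p = 1.5e-06). It had risen by 2.13 at 135 min. Vcp, the p97 ATPase that extracts ubiquitylated proteins, stood at 567, 868, 373, 535 and 559.8 CPM in control replicates 1 to 5 and at 1621, 1658, 1177 and 1548 CPM in 405-min replicates 1 to 4, and all 4 late libraries were above the highest control (log2 fold change 1.37, SE 0.20, adjusted p = 0.000434, and with the library set 1.10, adjusted p = 8.84e-05). Its cofactor Nploc4 rose by 1.48 in the group-only fit and 1.19 with the library set.

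Ubb, which codes ubiquitin as repeats, stood at 142, 213, 142, 145 and 175 CPM in control replicates 1 to 5 and at 427, 498, 345 and 441 CPM in 405-min replicates 1 to 4. All late values were above all controls (log2 fold change 1.39, SE 0.16, adjusted p = 0.000129, and with the library set 1.14, adjusted p = 1.49e-05). Its reads could be split between genes with nearly the same coding repeats.

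Chaperones of the cytosol rose in part. The all-gene shares in both fits were 5.27% rising and 6.04% falling. Of 30 heat shock proteins and co-chaperones tested, 10 rose and 1 fell in both fits, with a median log2 fold change of 0.60 in the group-only fit and 0.55 with the library set. Hspa8, the constitutive HSP70, stood at 4104, 5620.5, 2843, 4287 and 5424 CPM in control replicates 1 to 5 and at 10519.6, 12300.2, 9766 and 11518 CPM in 405-min replicates 1 to 4 (log2 fold change 1.31, SE 0.19, adjusted p = 0.000467, and with the library set 1.11, adjusted p = 0.000268). Hsph1, an HSP110 exchange factor, stood at 335, 351, 223, 363 and 407 CPM in control replicates 1 to 5 and at 644, 751, 771 and 738 CPM in 405-min replicates 1 to 4 (log2 fold change 1.11, SE 0.15, adjusted p = 0.000286, and with the library set 1.13, adjusted p = 0.000156), and all 4 late libraries were within 644 to 771 CPM. Bag3, a co-chaperone of selective autophagy, went from 46.7 ± 9.22 CPM in the controls (SD, n = 5) to 132 ± 31.5 CPM at 405 min (SD, n = 4) (log2 fold change 1.496, SE 0.18, adjusted p = 0.000161, and with the library set 1.22, adjusted p = 3.42e-05), and the small heat shock protein Hspb8, its partner, rose by 1.39 in the group-only fit and 1.23 with the library set. Hspa1b, the inducible HSP70, stood at 31.0, 9.02, 54.7, 32.5 and 29.9 CPM in control replicates 1 to 5 and at 9.81, 14.1, 29.3 and 10.7 CPM in 405-min replicates 1 to 4. The groups overlapped and the gene did not pass (log2 fold change -0.97, SE 0.43, adjusted p = 0.101, and with the library set -0.16, adjusted p = 0.735), although at 135 min it averaged 122 CPM ± 15.96 (SD, n = 3; log2 fold change 1.96, adjusted p = 0.039). Its near-identical neighbour Hspa1a makes its counts uncertain. Dnajb1, an HSP40, passed in the group-only fit only (log2 fold change 0.74, SE 0.24, adjusted p = 0.037, and with the library set 0.40, adjusted p = 0.151).

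The member that fell was Fkbp5, an immunophilin co-chaperone of HSP90. In RefSeq promoter windows the heat shock element pair TTCNNGAA occurred in 9.599% of all genes and 8.09% of tested genes. Of the 24 tested chaperone genes with a window, 5 held it (Cdc37, Chordc1, Dnajb4, Dnajb6 and Hsph1). Only Hsph1 of these was among the 6 with a window that rose in both fits. The match of Hsph1 in the 150 bases before the start is in capitals.
Hsph1 (chr5:149636316-149636465, - strand): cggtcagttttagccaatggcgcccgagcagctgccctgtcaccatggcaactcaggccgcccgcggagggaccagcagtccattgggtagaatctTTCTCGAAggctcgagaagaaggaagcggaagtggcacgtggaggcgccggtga
Of 13 subunits of the TRiC chaperonin and prefoldin, which fold actin and tubulin, 0 rose or fell in both fits, and Cct4 and Pfdn1 fell in the group-only fit only. ER chaperones rose in 5 of 25 tested in both fits and in 10 in the group-only fit, where the count was 3, 4 and 1 without 405-min replicates 1, 2 and 4, and 4 and 6 without control replicates 1 and 4. The all-gene rising shares were 5.27% in both fits and 9.99% in the group-only fit. Calr, calreticulin, stood at 368, 1031, 267, 314 and 522 CPM in control replicates 1 to 5 and at 1683, 1235, 618 and 1465 CPM in 405-min replicates 1 to 4; the set 2 control lay among the late values, and the log2 fold change was 1.32 in the group-only fit and 0.62 with the library set. Hspa5, the ER HSP70 known as BiP, did not pass (log2 fold change 0.29, SE 0.18, adjusted p = 0.213, and with the library set 0.44, adjusted p = 0.136).

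Autophagy and lysosomal genes rose in part. Over all tested genes, 5.27% rose and 6.04% fell in both fits, and 9.99% rose in the group-only fit. Of 22 autophagy genes, 7 rose and 1 fell in both fits, with Sqstm1 (above), Gabarapl1, Gabarapl2, Ulk1, Nbr1, Tax1bp1 and Wipi2 rising and Atg3 falling. Gabarapl1, an ATG8 family member, stood at 20.5, 57.2, 13.1, 25.2 and 17.7 CPM in control replicates 1 to 5 and at 197, 138, 63.0 and 138 CPM in 405-min replicates 1 to 4 (log2 fold change 2.32, SE 0.42, adjusted p = 0.00225, and with the library set 1.62, adjusted p = 4.69e-05). Ulk1, the kinase that starts autophagy, had log2 fold changes of 2.06 in the group-only fit and 1.45 with the library set. Of 38 lysosomal genes, 7 rose in both fits and 0 fell, and 11 rose in the group-only fit. Ctsd, cathepsin D, stood at 58.8, 136, 34.7, 60.7 and 89.8 CPM in control replicates 1 to 5 and at 426, 272, 151 and 305 CPM in 405-min replicates 1 to 4, with the set 2 control and the set 1 late library close to each other at 136 and 151 CPM (log2 fold change 1.92, SE 0.38, adjusted p = 0.00371, and with the library set 1.29, adjusted p = 0.00145). The median log2 fold change of the autophagy list was 0.52 in the group-only fit and 0.18 with the library set. Without control replicate 2, 12 autophagy and 24 lysosomal genes rose in the group-only fit, and the lysosomal count was 18 without 405-min replicate 3, 6 without replicate 1 and 7 without replicate 4 or control replicate 4. The count over all genes moved likewise from 1027, to 2517 without control replicate 2 and 1508 without 405-min replicate 3. It was 417 without 405-min replicate 1, 431 without 405-min replicate 4 and 551 without control replicate 4.

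Targets of p53 rose in part. Over all 10276 tested genes, 5.27% rose and 6.04% fell in both fits, and 9.99% rose in the group-only fit. At 135 min, 58 of all tested genes rose. Of 29 targets tested, 10 rose in both fits and 0 fell, and 9 had risen at 135 min against the same controls. In the group-only fit 14 rose, but 8 without any of 405-min replicates 1, 2 or 4 and 9 without control replicate 1 or 4. Cdkn1a, which codes the cell cycle inhibitor p21, stood at 20.2, 34.8, 25.3, 20.8 and 28.0 CPM in control replicates 1 to 5 and at 124, 86.2, 60.3 and 96.1 CPM in 405-min replicates 1 to 4 (log2 fold change 1.83, SE 0.24, adjusted p = 0.000247, and with the library set 1.41, adjusted p = 2.55e-05). Mdm2, the ubiquitin ligase of p53, stood at 171, 112, 226, 157 and 150.05 CPM in control replicates 1 to 5 and at 356, 426, 404 and 320.4 CPM in 405-min replicates 1 to 4. Its late libraries were all above all controls regardless of set (log2 fold change 1.21, SE 0.17, adjusted p = 0.000434, and with the library set 1.44, adjusted p = 2.55e-05). The 135-min mean was 999 CPM ± 65.6 (SD, n = 3), and the difference of 405 from 135 min was -1.41 (adjusted p = 0.0022). Trp53inp1, Eda2r and Gadd45a rose by 1.82, 1.15 and 1.51 in the group-only fit and by 1.78, 1.35 and 1.77 with the library set, and Trp53inp1 and Eda2r are low in GC (38.6% and 39.3%). Ccnd1, cyclin D1, did not pass in the group-only fit (log2 fold change -0.39, SE 0.23, adjusted p = 0.212) but was lower with the library set (-0.74, adjusted p = 0.00197).

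The genes with the largest decreases that met the same conditions were Fibin, Nr2f1, Fgf7, Prss23, Lhfp, Snhg9, Cebpd, Kcna4, Spry1, Ptx3, Cd24a, C130038G02Rik, Osmr, Cyp1b1 and Slc1a3. Over all tested genes, 6.43% lay below all controls in every 405-min library. Prss23, a secreted serine protease (chromosome 7, 96656295 to 96666096), stood at 651, 311, 612, 566 and 506 CPM in control replicates 1 to 5 and at 85.2, 95.9, 139 and 87.5 CPM in 405-min replicates 1 to 4. The set 2 control was the lowest control and still above 2 times any late value (log2 fold change -2.38, SE 0.23, adjusted p = 2.97e-05, and with the library set -1.96, adjusted p = 2.42e-07). Fgf7, keratinocyte growth factor (chromosome 2, 125860394 to 125916921, 38.5% GC), stood at 724, 231, 1108, 696 and 639.6 CPM in control replicates 1 to 5 and at 83.0, 119, 226 and 88.4 CPM in 405-min replicates 1 to 4. Here the set 2 control at 231 CPM almost met the set 1 late library at 226 CPM (log2 fold change -2.40, SE 0.41, adjusted p = 0.00163, and with the library set -1.63, adjusted p = 0.000108), and within the sets the log2 fold changes were -1.82 and -1.24.

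Nr2f1, the orphan nuclear receptor COUP-TF1 (chromosome 13, 78328236 to 78338243), stood at 99.8, 40.5, 237, 112 and 91.2 CPM in control replicates 1 to 5 and at 17.3, 17.4, 31.9 and 19.7 CPM in 405-min replicates 1 to 4 (log2 fold change -2.43, SE 0.38, adjusted p = 0.00092, and with the library set -1.88, adjusted p = 0.00138). Ptx3, a secreted pattern recognition protein (chromosome 3, 66023809 to 66029728), went from 55.8 ± 31.7 CPM in the controls (SD, n = 5) to 11.5 ± 1.39 CPM at 405 min (SD, n = 4) (log2 fold change -2.27, SE 0.32, adjusted p = 0.000405, and with the library set -1.90, adjusted p = 0.000783). Osmr, the oncostatin M receptor (chromosome 15, 6763577 to 6824313), stood at 95.9, 64.7, 168, 126 and 97.3 CPM in control replicates 1 to 5 and at 28.1, 27.7, 26.0 and 23.8 CPM in 405-min replicates 1 to 4, and the late libraries were nearly equal (log2 fold change -2.06, SE 0.24, adjusted p = 0.000111, and with the library set -1.73, adjusted p = 9.9e-05). Cd24a, a cell surface glycoprotein, Lhfp, Cyp1b1, a cytochrome P450, Kcna4, a potassium channel, and Slc1a3, a glutamate transporter, had log2 fold changes of -2.22, -2.37, -2.04, -2.30 and -2.04 in the group-only fit and -1.62, -1.70, -1.60, -2.11 and -1.64 with the library set. Spry1, a brake on receptor signalling, had log2 fold changes of -2.28 in the group-only fit and -2.08 with the library set. Fibin (-2.72) lost its call with the GC slope of the library as a covariate (log2 fold change -1.64, adjusted p = 0.0649). Of these 15, Snhg9 is annotated as a processed transcript, C130038G02Rik had no match in the annotation used and Cebpd is listed there as a pseudogene.

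All 4 tested members of the C/EBP family of transcription factors fell in the group-only fit and 3 in both fits. The all-gene falling shares were 13.4% and 6.04%. Cebpd (chromosome 16, 15887379 to 15889638) stood at 113, 68.0, 223, 109 and 105 CPM in control replicates 1 to 5 and at 28.8, 25.3, 20.4 and 23.8 CPM in 405-min replicates 1 to 4 (log2 fold change -2.32, SE 0.27, adjusted p = 0.000111, and with the library set -2.14, adjusted p = 0.000202). Cebpb, which acts in inflammation and differentiation, went from 63.0 ± 22.2 CPM in the controls (SD, n = 5) to 25.0 ± 9.55 CPM at 405 min (SD, n = 4) (log2 fold change -1.33, SE 0.28, adjusted p = 0.00542, and with the library set -0.93, adjusted p = 0.00906), and its exons are GC-rich (67.2%). Of the rest, Cebpg fell in both fits and Cebpz in the group-only fit.

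Most targets of BMP, TGF-beta and YAP fell. Their falling share was the largest among the lists of over 5 tested members. Because the lists were chosen with earlier results of these data known, this rank is a description only. Over all 10276 tested genes, 13.4% fell in the group-only fit, 6.04% in both fits and 92 genes at 135 min. Of 17 targets tested, 14 fell and 0 rose in the group-only fit, 12 fell in both fits, and the median log2 fold change was -0.90 and -0.78 (group-only fit and with the library set). At 135 min, 8 of them had fallen against the same controls. Without 405-min replicate 2, 9 fell in the group-only fit, and 1 and 5 fell within sets 1 and 2 alone. Id2 and Id3 code inhibitors of helix-loop-helix factors and are direct BMP targets. Id3 stood at 180.3, 85.5, 259.9, 170.5 and 114 CPM in control replicates 1 to 5 and at 59.2, 40.1, 70.1 and 44.2 CPM in 405-min replicates 1 to 4 (log2 fold change -1.60, SE 0.30, adjusted p = 0.00256, and with the library set -1.13, adjusted p = 0.0044), and Id2 stood at 95.2, 78.3, 162, 98.4 and 79.8 CPM in control replicates 1 to 5 and at 35.9, 42.7, 41.8 and 38.6 CPM in 405-min replicates 1 to 4 (log2 fold change -1.37, SE 0.20, adjusted p = 0.000551, and with the library set -1.23, adjusted p = 0.00101). Smad6, an inhibitory SMAD, stood at 9.25, 5.26, 12.7, 8.77 and 9.35 CPM in control replicates 1 to 5 and at 4.22, 2.39, 1.55 and 2.20 CPM in 405-min replicates 1 to 4 (log2 fold change -1.79, SE 0.34, adjusted p = 0.00272, and with the library set -1.71, adjusted p = 0.0108). Ctgf, a matricellular YAP target, stood at 184, 262, 159, 151 and 126 CPM in control replicates 1 to 5 and at 106, 83.6, 72.3 and 94.6 CPM in 405-min replicates 1 to 4, and its highest control was the set 2 library (log2 fold change -0.99, SE 0.20, adjusted p = 0.00488, and with the library set -1.16, adjusted p = 0.000782). Ankrd1, another YAP target, had log2 fold changes of -1.43 in the group-only fit and -1.04 with the library set. At 135 min the means of Id2, Id3 and Ctgf were 16.5 CPM ± 1.47, 36.0 CPM ± 5.15 and 43.4 CPM ± 5.51 (SD, n = 3), and the differences of 405 from 135 min were 1.27, 0.57 and 1.04 (adjusted p = 0.0104, 0.262 and 0.0219). With the library set these adjusted p were 0.00558, 0.0317 and 0.0795, so that the calls of Id3 and Ctgf depended on the set.

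Immediate-early and MAPK feedback genes fell in 6 of 25 and rose in 1 (Ier3, above) in both fits. Beside this list and those below stand 6.04% falling and 5.27% rising over all genes, and 13.4% falling in the group-only fit. Nr4a1, an orphan nuclear receptor induced by serum, stood at 35.0, 32.2, 12.9, 22.7 and 28.6 CPM in control replicates 1 to 5 and at 9.61, 8.83, 10.2 and 7.26 CPM in 405-min replicates 1 to 4 (log2 fold change -1.56, SE 0.26, adjusted p = 0.00133, and with the library set -1.60, adjusted p = 0.00086). Myc stood at 164, 169, 254, 135 and 117 CPM in control replicates 1 to 5 and at 87.6, 75.0, 55.7 and 84.3 CPM in 405-min replicates 1 to 4, and all late values were below all controls (log2 fold change -1.15, SE 0.20, adjusted p = 0.00191, and with the library set -1.25, adjusted p = 0.00121). Egr1 ranged from 19.3 to 120.0 CPM in the controls, with the set 2 control highest, and did not pass in the group-only fit (log2 fold change -0.90, SE 0.47, adjusted p = 0.159), though it did with the library set (-1.40, adjusted p = 0.0127). Egr2, at 4.51 CPM or less in these 9 libraries, had log2 fold changes of -1.61 in the group-only fit and -1.77 with the library set. In the group-only fit 8 of this list fell, but 4 without 405-min replicate 2 or 4 and 5 without replicate 1 or control replicate 1. Of 12 Kruppel-like factors, 2 fell in both fits (Klf4 and Klf10). Of 7 Notch pathway genes, Hes1 fell in both fits (log2 fold change -1.31, SE 0.26, adjusted p = 0.00371, and with the library set -1.20, adjusted p = 0.00815).

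Growth factors and their receptors fell in 7 of 17 tested in both fits, and 0 rose. The all-gene shares were 6.04% falling and 5.27% rising. Egfr stood at 18.1, 16.3, 20.6, 19.7 and 17.0 CPM in control replicates 1 to 5 and at 9.54, 10.7, 6.76 and 7.37 CPM in 405-min replicates 1 to 4, with little spread in either group (log2 fold change -1.09, SE 0.19, adjusted p = 0.00192, and with the library set -1.07, adjusted p = 0.00377). Pdgfra, the PDGF alpha receptor that marks fibroblasts, stood at 284, 334, 303, 289 and 275 CPM in control replicates 1 to 5 and at 239, 211, 175 and 209 CPM in 405-min replicates 1 to 4 (log2 fold change -0.51, SE 0.12, adjusted p = 0.00999, and with the library set -0.65, adjusted p = 0.000505). Pdgfrb had log2 fold changes of -0.70 in the group-only fit and -0.99 with the library set. Fgf10 and Hgf, which act on epithelium, fell with Fgf7: the log2 fold changes were -1.89 in the group-only fit and -1.38 with the library set for Fgf10, and -1.08 in the group-only fit and -0.84 with the library set for Hgf. Fgfr2 was the other member that fell in both fits.

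Extracellular matrix genes fell in both fits in 5 of 20 collagens and 9 of 35 other matrix genes, with 1 rising in each list (Col12a1 and Nid1). Beside these lists and the others in this paragraph stand 6.04% falling and 5.27% rising over all genes. Thbs1, thrombospondin 1, stood at 669, 958, 379, 565 and 595 CPM in control replicates 1 to 5 and at 260.1, 219, 153 and 191 CPM in 405-min replicates 1 to 4 (log2 fold change -1.62, SE 0.22, adjusted p = 0.000336, and with the library set -1.86, adjusted p = 1.49e-05). Col3a1 stood at 549, 754, 894, 579 and 722 CPM in control replicates 1 to 5 and at 357, 354, 369.8 and 445 CPM in 405-min replicates 1 to 4, so the late values were close to each other and below all controls (log2 fold change -0.87, SE 0.18, adjusted p = 0.00503, and with the library set -1.03, adjusted p = 0.000782). Col1a2 fell less (log2 fold change -0.39, SE 0.13, adjusted p = 0.0452, and with the library set -0.49, adjusted p = 0.015), and 405-min replicate 1 at 2620 CPM lay within the control range. Of the 10 fibroblast markers, 4 fell in both fits (Col1a2, Col3a1, Pdgfrb and Vim) and 0 rose. In these bulk libraries, fewer cells of a type and less RNA per cell cannot be told apart. The median of the collagen list was 0.20 in the group-only fit and -0.19 with the library set, so its sign depended on the set. Of 15 metalloproteinases and inhibitors, 4 fell in both fits (Adamts1, Adamts5, Timp1 and Timp3) and Mmp9 rose. Actin cytoskeleton genes and SRF targets fell in 7 of 23 and rose in 0, among them Vim, vimentin, which went from 5651 ± 695 CPM in the controls (SD, n = 5) to 3702 ± 364 CPM at 405 min (SD, n = 4) (log2 fold change -0.61, SE 0.15, adjusted p = 0.0121, and with the library set -0.45, adjusted p = 0.0213). Of 13 tubulins, 4 rose and 1 fell in both fits: Tuba4a rose (log2 fold change 1.88, SE 0.34, adjusted p = 0.00225, and with the library set 1.52, adjusted p = 0.00191) while Tuba1b fell (log2 fold change -1.17, SE 0.30, adjusted p = 0.015, and with the library set -0.62, adjusted p = 0.03), and close sequence among alpha tubulins makes their counts uncertain.

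Metabolic genes moved in both directions. Over all tested genes, 5.27% rose and 6.04% fell in both fits, and 13.4% fell in the group-only fit. Of 33 genes of sterol and fatty acid synthesis, 7 fell in both fits and 0 rose, while in the group-only fit 9 fell, and 5 without 405-min replicate 4. Elovl6, a fatty acid elongase, stood at 184, 178, 188, 222 and 202 CPM in control replicates 1 to 5 and at 114, 116, 105 and 105 CPM in 405-min replicates 1 to 4 (log2 fold change -0.82, SE 0.11, adjusted p = 0.000212, and with the library set -0.84, adjusted p = 0.000115), and its groups were tight and well apart. Idi1, isopentenyl diphosphate isomerase, stood at 604, 320.1, 944, 776 and 795 CPM in control replicates 1 to 5 and at 178, 264, 381 and 213 CPM in 405-min replicates 1 to 4, so the set 2 control at 320.1 CPM was below the set 1 late library at 381 CPM (log2 fold change -1.41, SE 0.29, adjusted p = 0.00445, and with the library set -0.93, adjusted p = 0.00539). In the hypoxia and glycolysis list of 23, 3 rose (Gpi1, Pfkm and Pkm2) and 4 fell (Bnip3, Ldha, P4ha1 and Pdk1) in both fits. Pdk1, which inhibits pyruvate dehydrogenase, stood at 22.8, 18.9, 28.6, 21.1 and 26.2 CPM in control replicates 1 to 5 and at 9.54, 7.44, 9.56 and 9.18 CPM in 405-min replicates 1 to 4 (log2 fold change -1.40, SE 0.21, adjusted p = 0.000551, and with the library set -1.42, adjusted p = 0.000611), and Ldha, lactate dehydrogenase A, went from 891 ± 192 CPM in the controls (SD, n = 5) to 457 ± 25.7 CPM at 405 min (SD, n = 4) (log2 fold change -0.96, SE 0.15, adjusted p = 0.000857, and with the library set -0.85, adjusted p = 0.00136). Of 23 ATF4 targets, 4 fell in both fits, including Atf4 itself, which stood at 402, 404, 434, 412 and 468 CPM in control replicates 1 to 5 and at 287, 328, 316 and 311 CPM in 405-min replicates 1 to 4 (log2 fold change -0.45, SE 0.10, adjusted p = 0.00907, and with the library set -0.43, adjusted p = 0.0114), and Chac1, a glutathione-degrading enzyme (-1.04 in the group-only fit and -1.19 with the library set). The only riser in that list was Slc7a11, which is also an NRF2 target.

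Ribosome biogenesis genes lost most of their calls with the library set. The all-gene falling shares were 13.4% in the group-only fit and 6.04% in both fits. In the group-only fit 17 of 46 genes fell and 1 rose, but 4 fell in both fits (Dkc1, Nip7, Nop58 and Wdr43). Nop58, a box C/D snoRNP protein, stood at 562, 276, 799.8, 604 and 379 CPM in control replicates 1 to 5 and at 166, 228, 286 and 173 CPM in 405-min replicates 1 to 4 (log2 fold change -1.30, SE 0.30, adjusted p = 0.00946, and with the library set -0.75, adjusted p = 0.0236). Ncl, nucleolin, fell in the group-only fit (log2 fold change -1.18, SE 0.32, adjusted p = 0.0204) and did not pass with the library set (-0.62, adjusted p = 0.093). The median exonic GC of the list was 47.9%, and with the GC offset 17 again fell. Without 405-min replicates 1, 2 and 4 the falling count was 4, 8 and 4, and without control replicates 1 and 4 it was 11 and 10.

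Several lists held few calls. In both fits, 0 of 76 cytosolic ribosomal protein genes rose and 1 fell, 1 of 74 mitochondrial ribosomal protein genes rose and 2 fell, and 1 of 72 nuclear-coded respiratory chain genes rose and 1 fell. Ribosomal protein genes have many processed copies, so their counts are uncertain. No member of the 46 genes of DNA replication or the 42 of mitosis passed in both fits, nor any of 13 metal response genes. Of 20 aminoacyl-tRNA synthetases 1 rose and 1 fell, of 26 mitochondrial import genes 2 fell, of 31 vesicle coat genes 4 rose, of 15 clock genes 2 fell, of 14 cytokine and NF-kB genes 1 rose and 2 fell, and of 8 insulin-like growth factor genes 1 fell. Of 237 Zfp genes, 10 rose and 5 fell. These shares stand beside 5.27% rising and 6.04% falling among all tested genes.

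**Figure D5:**
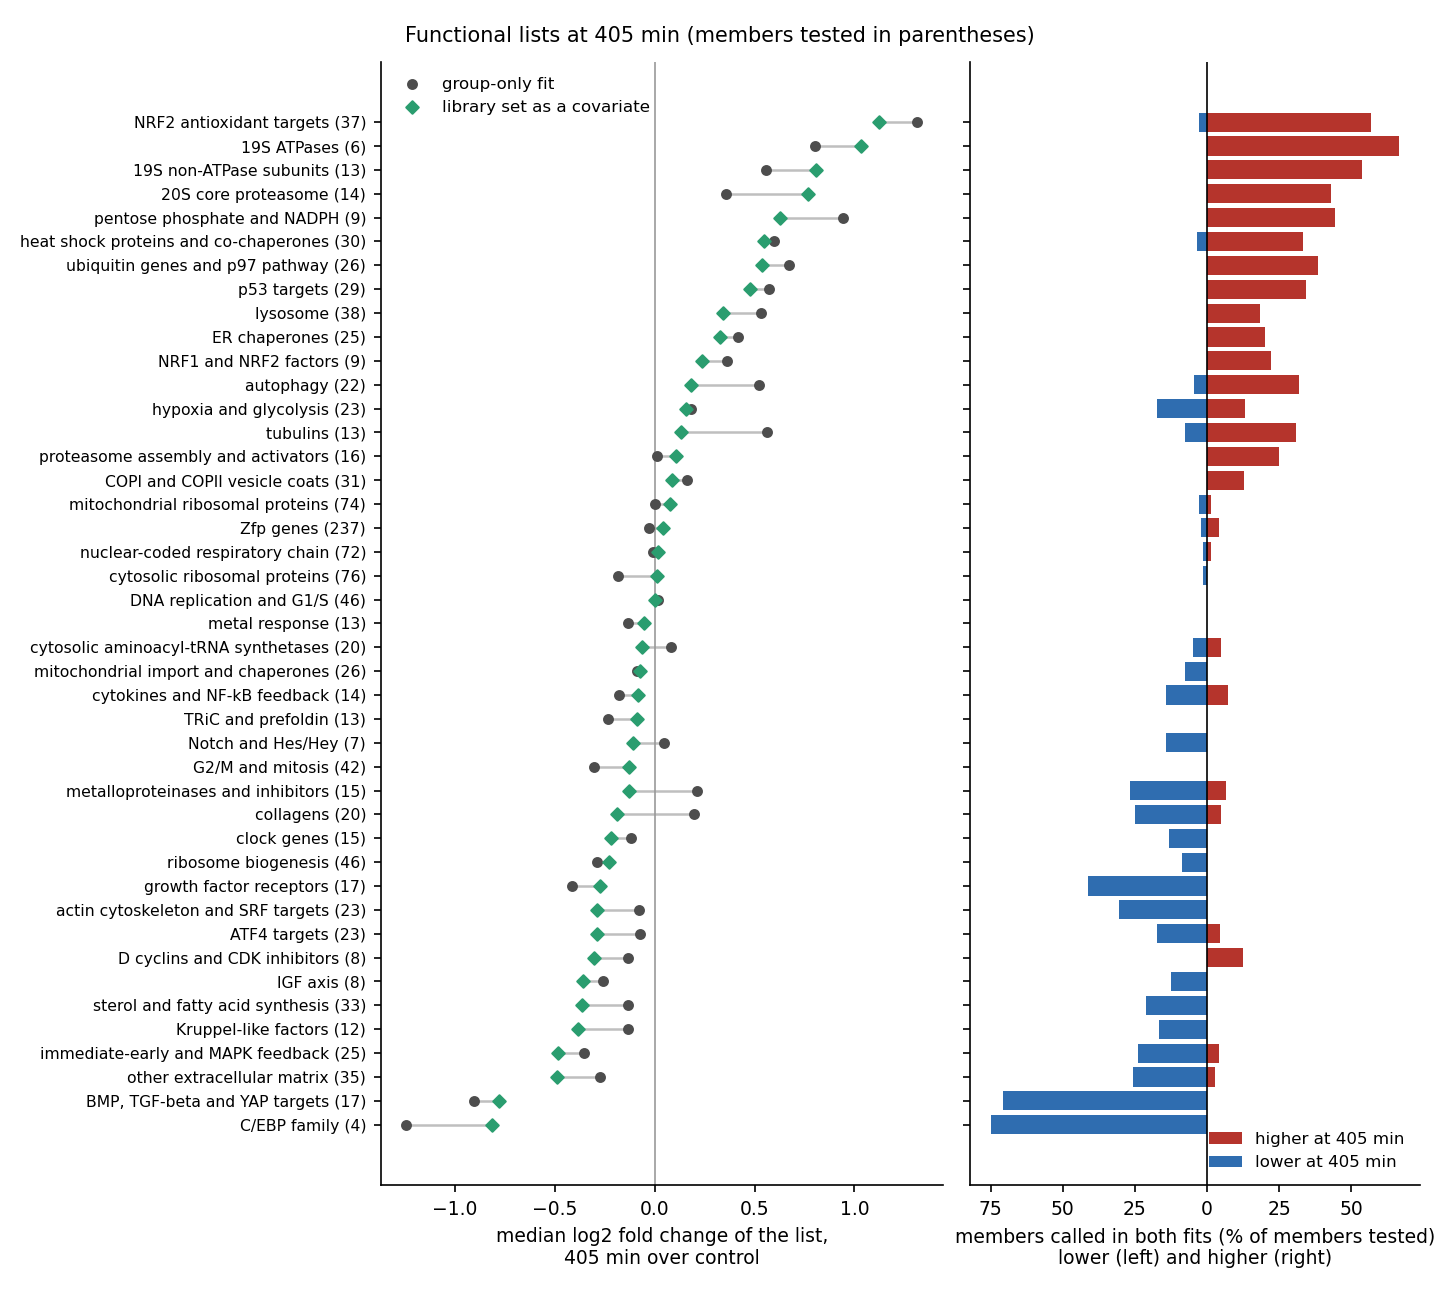
Left, median log2 fold change of each functional list (x axis, 405 min over control) in the group-only fit (circles) and with the library set as a covariate (diamonds); right, share of tested members called in both fits (x axis, percent; falling to the left, rising to the right). NRF2 targets have the highest medians in both fits (1.31 and 1.13), and the C/EBP family (4 genes) and the BMP, TGF-beta and YAP targets the lowest.

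The same fit gave the difference between the 405-min and 135-min samples. All 3 samples at 135 min were in library set 1, so this contrast is also partly one between sets. Of the 542 rising genes, 135 were higher and 5 lower at 405 than at 135 min, and of the 621 falling genes 207 were lower and 5 higher. Against control at 135 min, 40 and 54 of them had already passed in the same direction in the group-only fit, in which 58 genes in all rose and 92 fell. With the library set 314 rose and 501 fell at 135 min. The 135-min and 405-min comparisons share the 5 control samples. Among the 30 named genes, 8 rising genes were higher and 5 falling genes lower at 405 min. Ndrg4 differed by 2.17 (adjusted p = 0.00601) and Prss23 by -1.77 (adjusted p = 0.00216), and both passed with the library set. Osgin1 (0.47, adjusted p = 0.501), Slc7a11 (0.98, adjusted p = 0.236) and Cebpd (0.74, adjusted p = 0.135) did not pass.

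For some genes the change at 405 min was much smaller with the library set. Rhbdf2, Qsox1, Gstp1, Apba3 and Psd were the rising genes whose log2 fold change dropped most when the set was added, and Btnl1, Esrrb, 1700073E17Rik, Defb41 and Akr1b3 the falling ones. Qsox1 and Apba3 still passed with the library set (adjusted p = 0.0251 and 0.0267), and the other 8 did not. Apba3, of 61.8% GC, stood at 3.79, 25.0, 1.74, 3.06 and 5.76 CPM in control replicates 1 to 5 and at 52.9, 33.1, 8.89 and 38.3 CPM in 405-min replicates 1 to 4. The set 2 control stood above the set 1 late library, and the log2 fold change was 2.05 in the group-only fit and 1.06 with the library set. Gstp1, a glutathione transferase and NRF2 target with a near-identical copy in the genome, stood at 14.0, 27.5, 4.88, 8.09 and 8.64 CPM in control replicates 1 to 5 and at 82.0, 32.5, 12.5 and 48.4 CPM in 405-min replicates 1 to 4 (log2 fold change 1.78, SE 0.56, adjusted p = 0.0341, and with the library set 0.72, adjusted p = 0.154). Defb41, a defensin gene of 37.7% GC, stood at 42.0, 8.82, 169, 65.9 and 22.0 CPM in control replicates 1 to 5 and at 5.53, 8.64, 10.6 and 3.85 CPM in 405-min replicates 1 to 4, so that the set 2 control was within the range of the late libraries (log2 fold change -3.10, SE 0.76, adjusted p = 0.0128, and with the library set -1.46, adjusted p = 0.151). Btnl1 and Esrrb had log2 fold changes of -4.09 and -3.99 in the group-only fit, and within set 2 they were 0.23 and 1.10.

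Markers of other cell types were low in every library. The summed level of 8 epithelial markers was 1.14 to 2.61 CPM in the controls and 1.81 to 2.76 CPM at 405 min, that of 6 endothelial markers 0.680 to 3.84 and 1.04 to 2.05 CPM, and that of 4 neural markers 1.58 to 6.62 and 3.09 to 5.74 CPM. The 7 macrophage markers summed to 4.59 to 8.02 CPM in the controls and 12.2 to 14.6 CPM at 405 min. Cd14 and Itgam alone of these passed the filter. The other markers of the list enter the sums but were not tested, so the rise of the sum is not that of Cd14 alone. Itgam averaged 1.58 CPM in the controls and 0.578 CPM at 405 min and did not pass (log2 fold change -1.29, adjusted p = 0.117). Cd14, a receptor of the innate immune system that other cells can also express, stood at 2.11, 2.45, 2.96, 4.89 and 2.93 CPM in control replicates 1 to 5 and at 4.35, 5.30, 8.02 and 7.04 CPM in 405-min replicates 1 to 4 (log2 fold change 1.003, SE 0.29, adjusted p = 0.0246, and with the library set 1.18, adjusted p = 0.0216). The part of such cells in the results was not tested.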

How the data were processed

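RNA from 4 samples taken 405 min after S1 withdrawal and 5 control samples was compared within a series of 15. According to the study's methods and the labels, the authors prepared poly(A) RNA libraries, sequenced them on an Illumina instrument, aligned the reads to mm9 and counted them per RefSeq gene. The deposited values used here are expected counts per gene, which need not be whole, and RPKM, which the authors scaled by transcript length and library size. The other deposited columns (a Z score and a ratio) were not used. The aligner version and whether counting used strand are not given in the sources used here. Genes that share sequence with near-identical copies, or that overlap another gene, may hold reads of their neighbours.

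Here counts were rounded to whole numbers, genes with at least 1 count in all 15 samples were kept (10276 of 20207), and libraries were scaled by TMM. The test was edgeR's quasi-likelihood test (edgeR 4.0.16 in R 4.3.3) on all 15 samples with the group as the term, two-sided, with Benjamini-Hochberg adjustment over all tested genes at 0.05. The standard error is the log2 fold change divided by the square root of F. Exonic GC came from the mm9 sequence with GENCODE vM1 gene models (9836 of the tested genes, 95.7%). The GC slope of a library was taken on the deviation of log2 CPM from each gene's mean, and libraries above 0.15 per 10 points were called set 2. Control replicate 2, 45-min replicate 3 and 405-min replicates 1, 2 and 4 met this. For the GC offset, a lowess curve (span 0.3) of each library's deviation on GC was removed. In the fits within set 1 and within set 2, the single 405-min library and the single control library are assumed to vary like the other groups. Total counts were 6652685 to 20341538 per library in the 9 samples, and counting precision at low levels follows from these depths. No pair of libraries within a group agreed within counting noise (chi-square per degree of freedom 12.0 or more in 22 pairs), so each was counted as 1 sample. The replicate numbers were not treated as pairs.

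The genes named first are the 15 largest increases and 15 largest decreases among genes with a mean of at least 5 CPM in the higher group that passed in both fits and whose groups did not overlap, and the set-dependent genes are the 5 per direction whose log2 fold change dropped most with the library set. Other genes are examples from the functional lists, chosen after their values were seen. The members, lists and library sets were chosen with earlier results of these data known. Alternatives were DESeq2 1.42.0, RLE size factors, other filters, other covariates, each library set alone and each library left out. The fit was tested on simulated counts. The values of some genes are not reported here.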

Additional observations from a re-analysis of the deposited data

Results flagged for a closer look

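Among 84 groups of 4 or 5 libraries examined for the named genes, 6 held 1 library far from the rest, and chance alone gives about 1 in 20. In the controls these were Rusc1 in replicate 2 (2.004 CPM, the highest of the group), and Slc7a11, Mfsd6 and Spry1 in replicate 3 (0.349, 0.174 and 23.5 CPM). At 405 min they were Slc1a3 in replicate 4 (13.9 CPM) and Akr1b3 in replicate 3 (8.02 CPM). Control replicate 3 had the fewest counts and the lowest GC slope of the 15 libraries.

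For 13 of the 30 named genes the change differed between 405 and 135 min in the group-only fit (edgeR, adjusted p under 0.05). The log2 difference of 405 from 135 min was 2.29 for Mocos, 3.36 for Rusc1, 2.37 for Abhd4, 3.48 for Phf1, 1.71 for Sqstm1, 1.61 for Procr, 2.17 for Ndrg4 and 2.22 for Prl2c3. Among the falling genes it was -1.77 for Prss23, -1.56 for Lhfp, -1.80 for Cd24a, -1.51 for Osmr and -1.53 for Slc1a3. The 135-min libraries were all in set 1, and with the library set as a covariate 4 rising and 3 falling genes still differed.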

How the results depend on the processing

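The count of rising genes was 1027 and that of falling genes 1382 in the group-only fit. They became 634 and 706 with the library set, 121 and 96 within set 1, 242 and 213 within set 2, and 350 and 466 with only the compared samples in the fit. Falling genes numbered 813 with the GC slope as a covariate. DESeq2 called 1438 and 1972, and RLE size factors, the GC offset and both other filters kept both counts within 1.5 times. Leaving out each library in turn gave 417 to 2517 rising and 528 to 2461 falling genes, and 203 to 1150 and 211 to 1176 with the library set, an alternative added after seeing the data. The difference in GC slope between the groups was 0.440 to 0.762 in that check. With the library set, 4 named genes were higher and 3 lower at 405 than at 135 min, against 8 and 5.

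Same-numbered control and 405-min libraries did not deviate together (r -0.162, 0.1496, 0.437 and -0.330), so the numbers were not taken as pairs. With a replicate block the counts were 333 and 467, 704 and 819 when the GC offset joined the block, and 588 and 640 when the library set joined it.

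Each library set alone has 1 library in 1 of the compared groups. The 15 rising and 15 falling genes were chosen by passing in both fits with the groups apart. Their calls with the library set were therefore fixed by that choice, and kept calls under similar fits add little. The 15 rising genes kept their call under every alternative in which they were tested except within set 1, where 8 lost it. Of the 15 falling genes, 8 lost it within set 1 and 2 within set 2, and Fibin also lost it with the GC slope, the replicate block and the block with the library set. Among the genes recomputed under each alternative, signs turned for Psd within set 1 (-0.33), for Btnl1 (0.23), Esrrb (1.10), 1700073E17Rik (0.21), Akr1b3 (0.50) and Pttg1 (0.14) within set 2, and for Hspa1b with the GC slope (0.16) and within set 2 (0.38). Of the proteasome subunits, Adrm1 turned with the GC offset (-0.01), and Psma2, Psma4, Psma5 and Psmd14, which passed in neither fit, turned with the library set, Psma2 and Psmd14 with the GC offset too. The cause was not tested.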
